A study of Homo sapiens with 12 samples.

Results

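The OAS family comprises OAS1, OAS2, OAS3 and OASL, and its rows were taken by symbol from a table of 25268 genes, in which all 4 were listed and all 4 passed the filter on low values (a mean of at least 0.5 FPKM, a fragment count divided by transcript length and by library size, which 14676 genes passed). The family was proposed with the RBMX-minus-control differences of these libraries already known, so it was in effect selected on that contrast, and for that contrast the members' values, and how many fell past each threshold, are given as a description from which nothing is read. HEK293, a human embryonic kidney cell line, was transiently transfected with Lipofectamine2000 and either 2 µg of a plasmid expressing the RNA-binding protein RBMX (pCMV6-HIS-HA-RBMX, "RBMX cells") or the mock empty vector ("control cells", which the labels call wild type). Of each, 3 biological samples were profiled as total RNA and as polysomal RNA, giving 4 groups of 3 libraries. By the paper's protocol for polysomal profiling, cells were treated with cycloheximide before lysis. Polysomal RNA came from the polysome-bearing fractions of a sucrose gradient, and total RNA from a fixed share of every fraction of a gradient, with 500 ng of RNA per library. The share of cells that took up a plasmid is not given in the sources used here, so each culture may mix transfected and untransfected cells, and the pCMV6 backbone drives RBMX from the cytomegalovirus promoter.

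The 2′-5′ oligoadenylate synthetases are sensors of double-stranded RNA. When bound to it, OAS1, OAS2 and OAS3 join ATP into 2′-5′-linked oligoadenylates (2-5A), a second messenger of the antiviral response. OASL has lost this catalytic activity, carries ubiquitin-like domains and is known for enhancing RIG-I signaling. The 4 genes are textbook interferon-stimulated genes, transcribed when interferon signaling acts on an interferon-stimulated response element (ISRE) in their promoters.

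RBMX was measured first, as a check of the labels. In total RNA it was at 147, 145 and 108 FPKM in the control libraries and at 1731, 2073 and 1460 FPKM in the RBMX libraries, a log2 difference of 3.71 ± 0.19 (SE, adjusted p = 0.00269, limma with Benjamini-Hochberg adjustment). In polysomal RNA the log2 difference was 3.25 ± 0.24 (adjusted p = 0.0415, limma). All 8 HEK293 markers were detected, with VIM between 217 and 577 FPKM, while the leukocyte markers PTPRC and CD3E stayed at or below 0.0694 FPKM in every library. The summed level of the 6 leukocyte markers ranged from 1.49 to 2.09 FPKM in the control libraries and from 1.84 to 2.91 FPKM in the RBMX libraries, most of it CD14. ITGAM was at 0.0627 to 0.196 FPKM in the first and at 0.269 to 0.551 FPKM in the second, and the part of these cells' genes in the results was not tested. Of the HEK293 markers, KRT8 and KRT18 were higher in all RBMX than in all control libraries of both fractions. That order held for 11.9% of all genes tested in total and 10.0% in polysomal RNA. The third library of each group stood apart from the other two in the OAS genes, as given per gene below.

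In the GENCODE v29 annotation of GRCh38, OAS1 (chr12:112906777-112933222), OAS3 (chr12:112938352-112973249) and OAS2 (chr12:112978395-113011723) lie side by side on the plus strand, 5129 and 5145 bases apart. OASL (chr12:121019111-121039242) lies on the minus strand of the same chromosome, 8007387 bases beyond OAS2. Their longest coding transcripts have 6 exons and 1242 coding bases for OAS1, 12 exons and 2178 coding bases for OAS2, 16 exons and 3261 coding bases for OAS3, and 6 exons and 1542 coding bases for OASL. Over all coding transcripts of each pair of members, the longest identical run was 15 to 31 bases, the longest being between OAS1 and OASL. An antisense gene, AC004551.1, overlaps OAS1, OAS3 and OAS2 on the minus strand. It is not listed in the expression table, and the sources used here do not say whether counting used strand, so reads from it cannot be told apart from those of the 3 genes. These coordinates are for orientation, since the submitters' processing notes name hg19.

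RefSeq promoter windows (GRCh38.p14, 250 bases before to 50 after the start) were matched for OAS1 and OAS3. They were searched on both strands for the ISRE cores GAAANGAAA and GAAANNGAAA, which can overlap each other. The stretches that hold a match are shown because they hold the letters searched for, with the matched letters in capitals. All are on the plus strand and are written 5′ to 3′, the first at chr12:112906938-112906960, the second at chr12:112938319-112938347 and the last at chr12:112938455-112938473.

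OAS1, ending 2 bases before the RefSeq start: ttctgagGAAACGAAAccaacag

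OAS3, upstream stretch: ctagaaaGAAACGAAACTGAAAgcaggga

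OAS3, ending 1 base before the RefSeq start: cgggcggGAAAACGAAAcc

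The OAS1 match began 17 bases before the RefSeq start. The OAS3 upstream stretch held overlapping matches to both cores, beginning 148 and 143 bases before the start, and a further GAAANNGAAA match began 12 bases before it. The first and last stretches lie inside the spans GENCODE v29 gives for OAS1 and OAS3, which begin further upstream. GAAANGAAA was found in 3.22% of all 27305 RefSeq promoter windows, GAAANNGAAA in 3.65%, and either of them in 6.55%. Among the other lists, 23 of 27 matched promoters of other interferon-stimulated genes held either core (85.2%), 4 of 7 of the nucleic acid sensors and effectors and 0 of 6 of the interferon receptor and factor genes. A match is a description of letters and not of a bound site.

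In total RNA, all 4 OAS genes were higher in each of the 3 RBMX libraries than in any control library, with mean levels 4.00 to 18.7 times those of the control. OAS2 differed most and OAS3 least. The RBMX libraries also differed widely among themselves in these genes, and none of the 4 passed the threshold across all genes. In these bulk libraries, more expressing cells and more RNA per expressing cell cannot be told apart.

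OAS1, the smallest synthetase of the family, was at 15.4, 19.5 and 4.86 FPKM in the control libraries and at 134, 147 and 33.3 FPKM in the RBMX libraries (replicates 1, 2 and 3). The groups did not overlap, the lowest RBMX library being 1.70 times the highest control library. The means were 13.3 ± 7.56 and 105 ± 62.3 FPKM (SD, n = 3 each), a log2 difference of 2.81 ± 0.75 (SE, on the log2(FPKM + 1) scale).

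OAS2, which has 2 copies of the OAS domain, had the lowest or second lowest control values, 5.89, 7.26 and 2.39 FPKM, against 128, 143 and 19.2 FPKM in the RBMX libraries. Again the groups did not overlap, with 2.64 times between the nearest libraries. The means were 5.18 ± 2.51 and 96.7 ± 67.6 FPKM (SD, n = 3 each), and the log2 difference was 3.64 ± 0.85 (SE), with 0.593% of the genes tested above it.

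OAS3, the longest member, with 3 OAS domains, and the one that best binds long double-stranded RNA, had the highest control level at 21.9, 28.5 and 8.51 FPKM. Its RBMX libraries were at 100.3, 99.3 and 36.0 FPKM, so that the lowest stood only 1.26 times above the highest control library. The means were 19.6 ± 10.2 and 78.5 ± 36.8 FPKM (SD, n = 3 each), with a log2 difference of 1.96 ± 0.59 (SE).

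OASL, the catalytically inactive member, was at 6.86, 6.82 and 3.22 FPKM in the control libraries and at 81.1, 88.4 and 14.1 FPKM in the RBMX libraries. The groups were separated by 2.06 times at their nearest. The means were 5.64 ± 2.09 and 61.2 ± 40.9 FPKM (SD, n = 3 each), and the log2 difference was 2.91 ± 0.75 (SE).

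**Figure D1:**
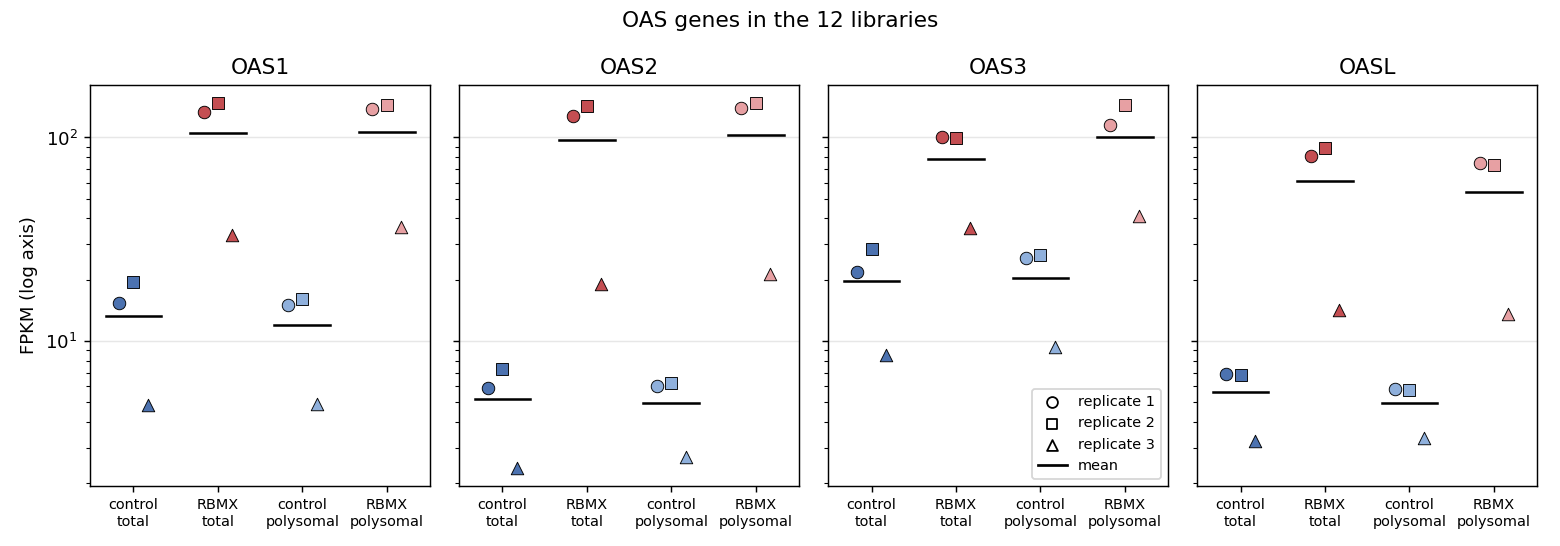
FPKM (log axis) of the 4 OAS genes in each of the 12 libraries, by group, with the replicate number as the marker shape and the group mean as a line. In both fractions every RBMX library lies above every control library, and replicate 3 (triangles) is the lowest of its group for each gene.

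Polysomal RNA gave the same separation. OAS1 was at 15.0, 16.03 and 4.91 FPKM in control cells and 138, 144 and 36.4 FPKM in RBMX cells. OAS2 was at 6.0, 6.20 and 2.69 FPKM against 140, 147 and 21.3 FPKM. For both genes the groups were apart, by 2.27 and 3.44 times at their nearest, with log2 differences of 2.96 ± 0.69 and 3.76 ± 0.81 (SE).

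OAS3 in polysomal RNA was at 25.5, 26.5 and 9.37 FPKM in control cells and 116, 145 and 41.1 FPKM in RBMX cells. OASL was at 5.78, 5.73 and 3.35 FPKM against 75.3, 73.4 and 13.5 FPKM. The nearest libraries were 1.55 and 2.34 times apart, and the log2 differences were 2.19 ± 0.61 and 2.90 ± 0.70 (SE). The ratios of the group means were 8.87 for OAS1, 20.7 for OAS2, 4.91 for OAS3 and 10.9 for OASL. Total and polysomal libraries came from the same kind of cultures, so the second fraction does not count as an independent repeat.

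Over the family the median log2 difference was 2.86 in total and 2.93 in polysomal RNA, where the median of all genes tested was 0 in both. Every member had a log2 difference of at least 1, which held for 1.82% of all genes (total RNA) and 1.75% (polysomal RNA). Groups in which all RBMX libraries exceeded all control libraries were found for 4 of 4 members, and for 11.9% of all genes in total and 10.0% in polysomal RNA. At an adjusted p up to 0.05 (limma, Benjamini-Hochberg), 0 of 4 members were called in either fraction, beside 0.164% of all genes in total RNA (24 genes) and 0.0477% in polysomal RNA (7 genes). At an unadjusted p under 0.05, 4 of 4 members counted in each fraction, as did 2756 and 1715 of the 14676 genes. Since the members were selected on this contrast, nothing is read from these counts.

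The spread came from 1 replicate number. In RBMX total RNA, replicate 3 lay below the mean of replicates 1 and 2 by log2 values of -2.05 for OAS1, -2.76 for OAS2, -1.45 for OAS3 and -2.50 for OASL. In control total RNA the same differences were -1.65, -1.15, -1.45 and -0.89. Polysomal RNA was alike, with -1.93, -2.70, -1.63 and -2.38 in RBMX cells and -1.48, -0.94, -1.38 and -0.64 in control cells. In total RNA, OAS3 was thus displaced alike in replicate 3 of the control and of the RBMX cells, whereas OAS2 and OASL were displaced further in the RBMX replicate.

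Over all genes tested the median difference of replicate 3 was 0.0398 or less (log2) in every group, with genes moving both ways. The median size of the difference, whatever its sign, was 0.19 and 0.23 in control total and polysomal RNA, where replicates 1 and 2 differed by 0.082 and 0.045, so control replicate 3 stood apart across genes. In RBMX cells it was 0.097 and 0.13, beside 0.083 and 0.12 between replicates 1 and 2. The other interferon-stimulated genes were also low there, with medians of -1.65 and -1.49 in RBMX total and polysomal RNA and of -0.65 and -0.70 in the control. The HEK293 markers were low in the control replicate only, with medians of -0.65 and -0.84, against 0.027 and -0.0033 in the RBMX replicate. RBMX itself was at -0.38 and -0.22 in the RBMX replicate and at -0.44 and -0.74 in the control. The part of these differences in the OAS values was not tested.

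**Figure D2:**
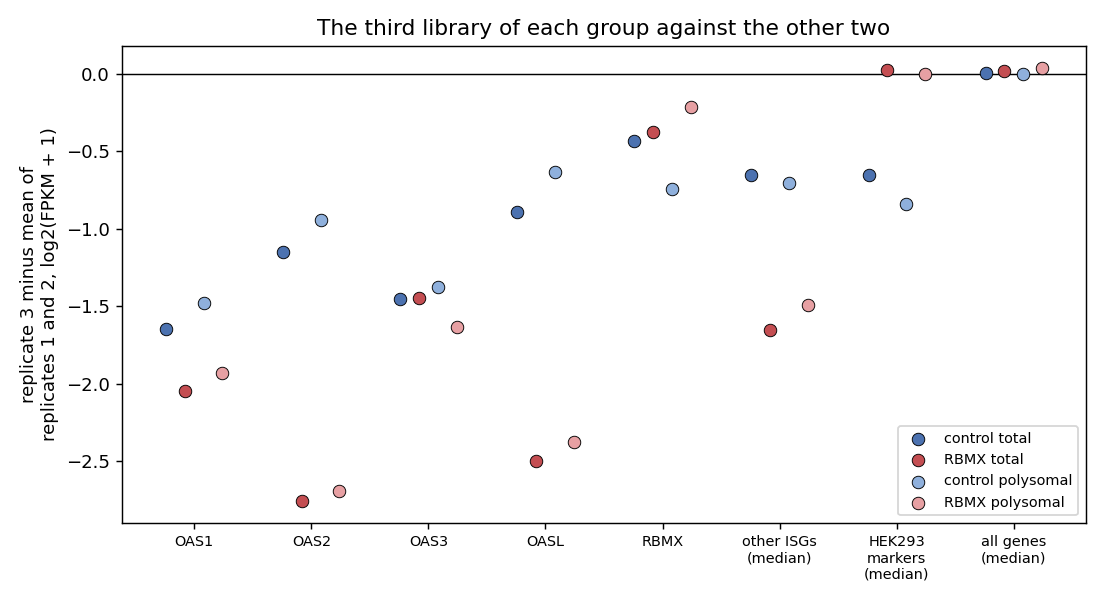
Difference of replicate 3 from the mean of replicates 1 and 2 (log2(FPKM + 1)) for each OAS gene and RBMX, and as medians for the other interferon-stimulated genes (ISGs), the HEK293 markers and all genes, in the 4 groups. The OAS genes lie between -0.64 and -2.76, while the median of all genes is near 0 in each group.

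The count of members past the limma threshold depended on that replicate number. Without RBMX replicate 3 it was 2 of 4 in both fractions (OAS2 and OASL), beside 1.21% of all genes for total RNA and 0.859% for polysomal RNA. Without replicate 3 of both vectors, a setting chosen after seeing the data, it was 4 of 4 in both fractions, beside 2.09% and 2.37% of all genes. The members were selected on this contrast and the libraries left out were those low in these genes, so these counts show how far the call rests on replicate 3 and are no support for a difference. The ratio of RBMX to control within replicate 3 was 6.84 for OAS1, 8.01 for OAS2, 4.23 for OAS3 and 4.39 for OASL in total RNA. Over replicates 1 and 2 the ratios of means were 8.04, 20.6, 3.96 and 12.4. The size for OAS1 and OAS3 was therefore close in both, and that for OAS2 and OASL was not.

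**Figure D3:**
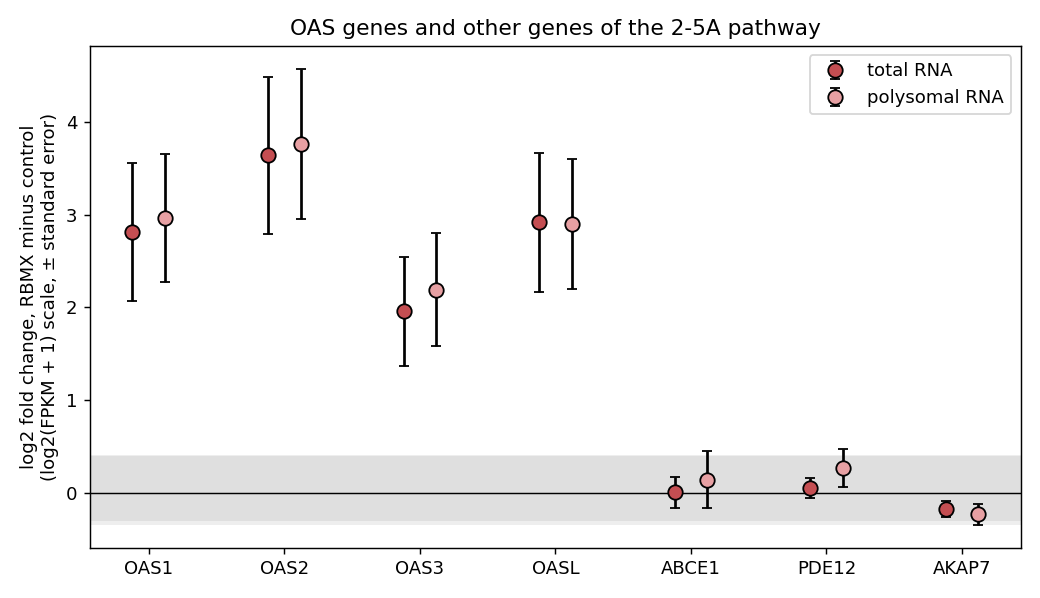
Log2 difference of RBMX minus control (log2(FPKM + 1) scale, bars show the standard error, n = 3 libraries per group) for the OAS genes and for ABCE1, PDE12 and AKAP7, in total and polysomal RNA. The shaded band spans the 5th to the 95th percentile of all genes tested, and the OAS genes lie above it at 1.96 to 3.76.

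The order of the members' FPKM differed between the vectors. In all 6 control libraries OAS3 was highest and OAS1 second, and OAS2 and OASL followed in an order that differed between libraries, so those last genes did not differ beyond their spread. In total RNA of RBMX replicates 1 and 2 the order was OAS1, OAS2, OAS3 and OASL, while OAS2 led in polysomal RNA of these replicates. In replicate 3 of the RBMX cells OAS3 and OAS1 led, as in the control. OASL was lowest in all 6 RBMX libraries, and the order of the other members was not stable there.

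As shares of the summed FPKM of the family, OAS2 made up 11.4% to 13.2% in the control libraries. Its share was 28.9% to 29.9% in RBMX replicates 1 and 2, and 18.7% and 19.0% in replicate 3. OAS3 made up 43.8% to 48.7% in the control, 20.8% to 28.4% in RBMX replicates 1 and 2, and 35.1% and 36.6% in replicate 3. OAS1 kept to between 24.2% and 32.4% in all 12 libraries. The most and least abundant members differed by 3.49 to 4.63 times in control libraries and by 1.65 to 3.04 times in RBMX libraries, and the family summed to between 19.0 and 62.1 FPKM in the first and between 103 and 510 FPKM in the second.

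Polysomal RNA was then compared with total RNA, a comparison that the choice of the family did not rest on, although it too was made with results of these data known. No OAS gene passed the threshold between the fractions, in control or in RBMX cells. The differences were small beside those between the vectors.

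In RBMX cells the polysomal-minus-total differences (log2(FPKM + 1), replicates 1, 2 and 3) were 0.20, 0.54 and 0.19 for OAS3. This was the largest mean of the 4 members, at 0.31 ± 0.20 (SD, n = 3), and 3.08% of all genes had a higher mean. OAS2 was at 0.13, 0.042 and 0.15, positive in each pair. OAS1 was at 0.047, -0.031 and 0.13, and OASL, negative in each pair, at -0.11, -0.27 and -0.061. A higher mean than theirs was held by 37.7% of all genes for OAS1, 25.0% for OAS2 and 76.15% for OASL.

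In control cells the differences were -0.038, -0.27 and 0.012 for OAS1 and 0.023, -0.20 and 0.12 for OAS2. They were 0.21, -0.10 and 0.13 for OAS3 and -0.21, -0.22 and 0.044 for OASL. None of the 4 genes kept 1 sign over the 3 pairs in control cells. The share of all genes that kept 1 sign was not counted in either vector, so nothing is read from the signs. A higher mean in control cells was held by 75.0% of all genes for OAS1, 55.4% for OAS2, 28.15% for OAS3 and 79.9% for OASL. Over all genes tested, 5th and 95th percentiles of the mean difference were -0.36 and 0.21 in control cells and -0.49 and 0.26 in RBMX cells.

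In limma fits over all genes, adjusted p-values of the members ranged from 0.994 to 1.00 in control cells and from 0.803 to 0.987 in RBMX cells, and 0 of 4 had an unadjusted p under 0.05. Such an unadjusted p was found for 1180 of the 14676 genes in control cells and for 3373 in RBMX cells (limma). In all, 0.0818% of genes were called in control cells (12 genes) and 1.34% in RBMX cells (196 genes). These counts moved with single libraries. In RBMX cells 10 to 42 genes were called without any 1 of the 6 libraries, the fewest without total RNA replicate 2, and in control cells 12 to 26, the most without polysomal replicate 3, or 199 without replicate 3 of both fractions. With the replicate block, which takes same-numbered total and polysomal libraries as a pair, OAS3 in RBMX cells had a difference of 0.31 with a 95% interval of 0.024 to 0.60 and an adjusted p of 0.219 (limma), and the other members' intervals included 0. In that fit of RBMX cells, 3217 of the 14676 genes had an unadjusted p under 0.05 (limma). The replicate 2 pair, which had the highest OAS3 difference, had deviations that correlated at only 0.0256.

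The vector-by-fraction interaction asks whether the RBMX-minus-control difference was larger in polysomal than in total RNA. Its values were 0.15 ± 1.09 for OAS1, 0.12 ± 1.25 for OAS2, 0.23 ± 0.90 for OAS3 and -0.015 ± 1.10 for OASL (SE, log2). The adjusted p was 1.00 for each (limma, all 12 libraries), 0 of 4 had an unadjusted p under 0.05, and 0.0204% of all genes were called. Of all 14676 genes, 88 had an unadjusted p under 0.05 in the interaction (limma). With the replicate block the 95% intervals were -0.087 to 0.38 for OAS1, -0.11 to 0.36 for OAS2, -0.092 to 0.56 for OAS3 and -0.26 to 0.23 for OASL. An interaction above 0.56 lay outside all 4 intervals of this paired fit. That bound rests on the pairing, and deviations of the RBMX pairs 1 and 2 correlated at only 0.230 and 0.0256. The unpaired fit, with standard errors of 0.90 to 1.25, sets no such bound.

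**Figure D4:**
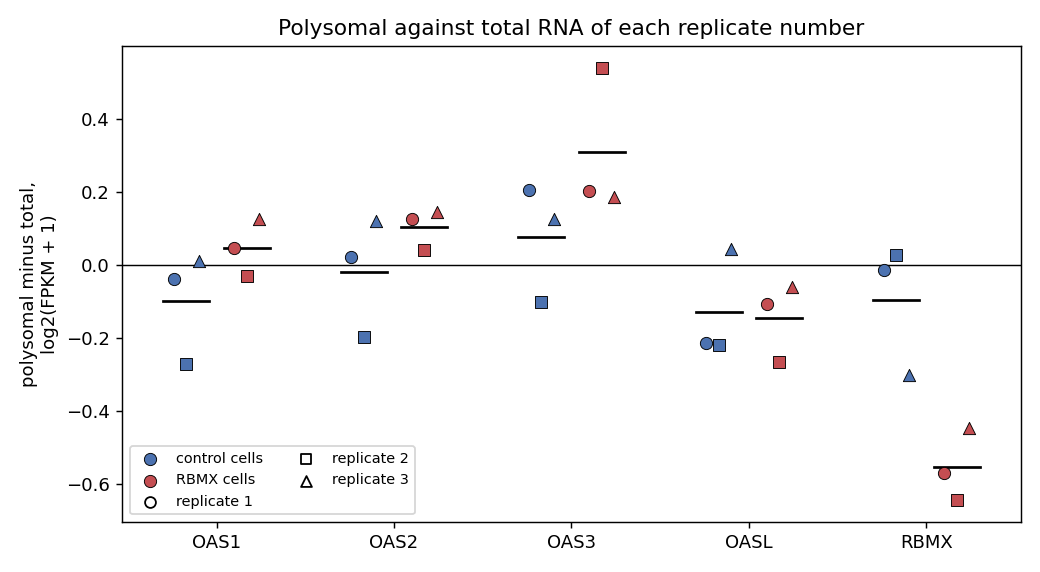
Polysomal minus total difference (log2(FPKM + 1)) of each same-numbered pair of libraries for the OAS genes and RBMX in control and RBMX cells, with means as lines. The OAS genes lie between -0.27 and 0.54, with OAS3 of RBMX replicate 2 the highest.

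Genes that act around 2-5A were followed beside the synthetases. ABCE1, which recycles ribosomes and is known to limit the 2-5A pathway, was at 25.5, 26.2 and 17.3 FPKM in control and 21.2, 23.95 and 23.0 FPKM in RBMX total RNA. PDE12, a phosphodiesterase that degrades 2-5A, had a log2 difference of 0.046 ± 0.11 (SE) and AKAP7, whose protein family includes 2-5A-degrading phosphodiesterases, one of -0.18 ± 0.084. AKAP7 was lower in all RBMX than in all control libraries of total RNA, while its groups overlapped in polysomal RNA. The share of all genes in that downward order was not counted. None of the 3 was called in total or polysomal RNA (limma), beside 0.164% and 0.0477% of all genes. An unadjusted p under 0.05 (limma) was found for 0 of the 3, beside 2756 and 1715 of all 14676 genes.

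A further list held sensors of foreign RNA or DNA, adaptors such as MAVS and effectors such as ADAR. Of its 10 genes, 9 passed the filter, 0 were called (limma), and 6 had RBMX libraries all above the control libraries in each fraction, with 0 all below. The upward order held for 11.9% of all genes in total and 10.0% in polysomal RNA, and 0.164% and 0.0477% of all genes were called. DDX58, which encodes the sensor RIG-I, was at 16.8, 19.2 and 10.99 FPKM in control and at 73.6, 86.0 and 29.1 FPKM in RBMX total RNA, again lowest in replicate 3. EIF2AK2, the kinase PKR, and ADAR, which deaminates adenosine in double-stranded RNA, had smaller log2 differences of 0.53 ± 0.20 and 0.71 ± 0.23 (SE). The list's median was 0.71 in total and 0.87 in polysomal RNA.

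Of the 10 interferon receptor and factor genes, 0 were called, and 7 were separated upward in total and 6 in polysomal RNA, with 1 and 0 separated downward. Upward separation held for 11.9% and 10.0% of all genes, and the downward share was not counted. IRF7, itself interferon-stimulated, was at 48.9, 46.7 and 29.7 FPKM in control and at 143, 137 and 69.3 FPKM in RBMX total RNA. It had a log2 difference of 1.42 ± 0.34, and IRF3, which is present in most resting cells, one of 0.31 ± 0.11 (SE). The medians of the list were 0.62 and 0.50.

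The 30 other interferon-stimulated genes had the list medians nearest to those of the OAS family, 2.17 in total and 2.18 in polysomal RNA, with ranges of 0.91 to 3.32 and 1.00 to 3.48. All 30 were separated upward in both fractions and 0 were called (limma), while each had an unadjusted p under 0.05. Of all genes, 11.9% in total and 10.0% in polysomal RNA were separated upward, and 2756 and 1715 of 14676 had such a p. The shares of all genes called were 0.164% and 0.0477%. Their most abundant members were IFI6, ISG15 and IFITM1. ISG15, a ubiquitin-like modifier, was at 325, 353 and 218 FPKM in control and at 1810, 1799 and 603 FPKM in RBMX total RNA, and IFITM1, which restricts virus entry, had a log2 difference of 2.73 ± 0.58 (SE).

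Across all 52 of 53 listed related genes that were tested, the median log2 difference was 1.42 in total and 1.39 in polysomal RNA. Upward separation was found for 42 and 41, beside 11.9% and 10.0% of all genes, and downward separation for 2 and 0. Of the 52, 0 were called (limma), beside 0.164% and 0.0477% of all genes. An unadjusted p under 0.05 (limma) was found for 42 and 40, beside 2756 and 1715 of all 14676 genes. None of the 52 was called between the fractions in control or RBMX cells, nor in the interaction, beside 0.0818%, 1.34% and 0.0204% of all genes. An unadjusted p under 0.05 (limma) was found for 1 of the 52 in control cells, 2 in RBMX cells and 0 in the interaction. Of all 14676 genes, 1180, 3373 and 88 had one. These lists too were chosen with earlier results known.

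**Figure D5:**
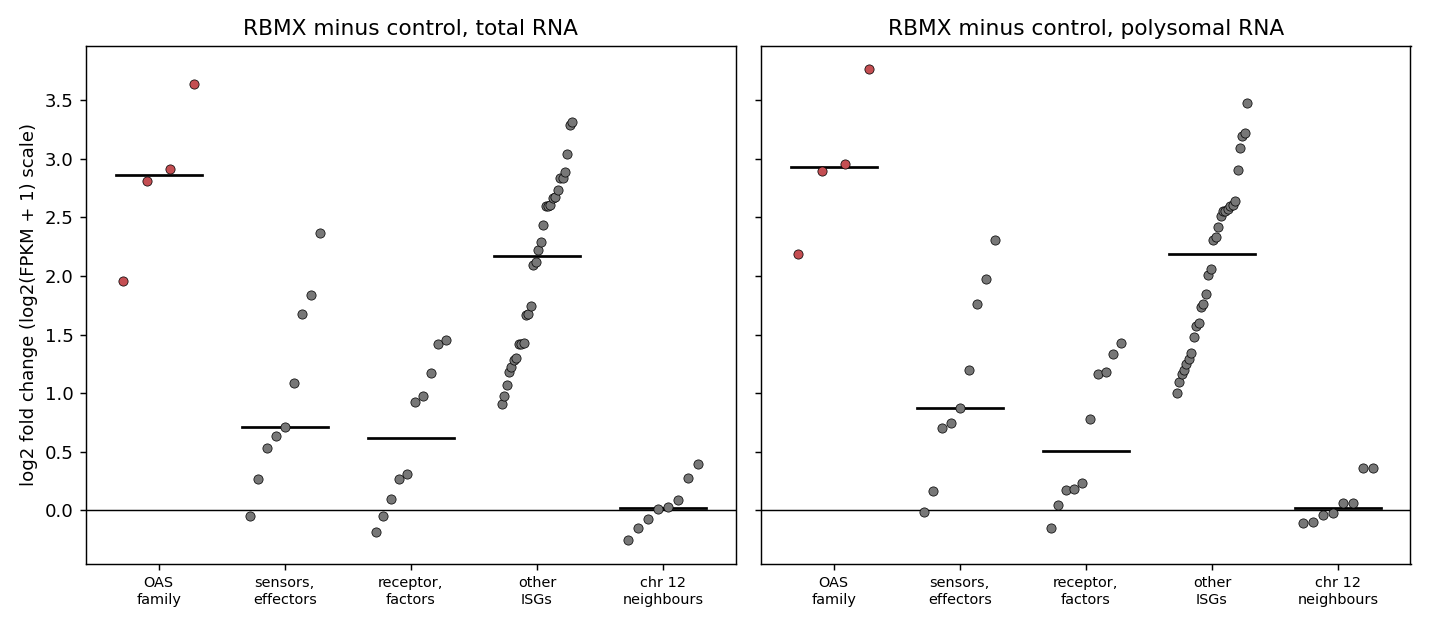
Log2 difference of RBMX minus control (log2(FPKM + 1) scale) of each tested gene, by list, in total (left) and polysomal RNA (right), with the list median as a line. The OAS family (medians 2.86 and 2.93) and the other interferon-stimulated genes (2.17 and 2.18) lie above the genes next to the OAS loci on chromosome 12 (0.021 and 0.018).

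Over the 12 libraries, the genes whose log2(FPKM + 1) followed each member most closely among all genes tested were taken, 3 for each. OAS1 ran with IFIT3, RSAD2 and HERC6 (Pearson r of 0.999, 0.999 and 0.997), and OAS2 with IFI35, PARP10 and IFITM3 (0.998 each). OAS3 ran with TRIM25, PML and OAS1 (0.995, 0.994 and 0.991), and OASL with IFI35, IFI44L and UBE2L6 (0.998, 0.997 and 0.997). Within the family r ranged from 0.959 for OAS3 and OASL to 0.997 for OAS2 and OASL. The 12 points share the vector groups on which the members were chosen, the fractions and replicate 3, so these values are descriptions over libraries that are not independent.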

How the data were processed

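RNA-seq libraries of control and RBMX HEK293 cells (total and polysomal RNA, 3 replicates each) were compared. Values are the FPKM per gene that the authors deposited, in 1 table of 12 columns. The submitters' processing notes name CASAVA 1.8, TopHat2 2.0.13, Cufflinks 2.2.1, Cuffnorm and hg19. The paper's methods describe another route, through counts on hg38, and which of them gave these FPKM is not settled. Depth is unknown, since low values did not share 1 step per library (11.5% to 23.5% of genes at or below 0.05 FPKM did). Summed FPKM ranged from 817528 to 1903317, of which small RNA genes took 40.6% to 72.9%. The precision is therefore limited to the spread between replicates.

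Genes with a mean of at least 0.5 FPKM over the 12 libraries (14676 of 25268) were analysed as log2(FPKM + 1), which understates changes of low genes, with limma 3.58.1 in R 4.3.3 (moderated, trended variance, two-sided). The script was first run on simulated data with independent libraries and a smaller spread than here. That run does not show how the fit behaves with a shared shift such as that of replicate 3. Each fraction or vector was fitted on its own, and the interaction on all 12 libraries. P-values were Benjamini-Hochberg adjusted over all genes tested. The members and lists were chosen with earlier results of these data known. Named genes were the members, RBMX, genes of the 2-5A pathway, up to 3 genes per related list by mean FPKM, and the 3 genes most correlated with each member. PTPRC, CD3E, CD14, ITGAM, KRT8, KRT18 and VIM were named as markers. The lists also held MB21D1, which did not pass the filter. Some listed genes are not reported here by name.

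The protocol takes total RNA from every fraction of a gradient, so same-numbered total and polysomal libraries were taken as pairs. Their deviations from the group means correlated at 0.623, 0.723 and 0.847 in control and at 0.230, 0.0256 and 0.692 in RBMX cells (14160 genes other than small RNA genes, replicates 1, 2 and 3). Promoter windows came from RefSeq (GRCh38.p14). Alternatives were another pseudocount, filter, rescaling, variance model, a joint fit, a replicate block and leaving out each replicate.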

Additional observations from a re-analysis of the deposited data

How the results depend on the processing

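The direction of RBMX minus control held for all 4 OAS genes under every alternative, and the count of OAS genes called stayed at 0 in all settings that kept every library. Leaving out 1 library or 1 replicate number gave 0 to 4 OAS genes called in each fraction, the calls coming without RBMX replicate 3 (2) or without replicate 3 of both vectors (4). Related genes called ranged from 0 to 37 in total and from 0 to 38 in polysomal RNA, with 25 and 20 without RBMX replicate 3. Of all 14676 genes, 178 and 126 were called without RBMX replicate 3, and 306 and 348 without replicate 3 of both vectors. The libraries left out there were low in many of the related genes, so these counts are no support for a difference. Control and RBMX libraries share only a replicate number, and deviations of same-numbered ones correlated at 0.348, -0.043 and 0.022 in total RNA. With that replicate block, 1 related gene (HERC5) was called in total RNA, a gene named after its value was seen, and genes called fell from 24 to 13 in total and from 7 to 3 in polysomal RNA. Paired polysomal-minus-total fits called 6 genes in control cells (12 without pairing), 4 in RBMX cells (196) and 5 in the interaction (3), and changed no call of an OAS gene.

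Quantile normalization turned the sign of OAS2 between fractions in control cells (0.0012) and of the OASL interaction (0.033). Leaving out libraries turned signs of the members' fraction effects, none of them called. In control cells these ran from -0.65 to 0.40 (OAS1), -0.40 to 0.30 (OAS2), -0.41 to 0.54 (OAS3) and -0.43 to 0.083 (OASL). In RBMX cells they ran from -0.63 to 0.69, -0.81 to 1.00, -0.17 to 0.85 and -0.98 to 0.65, and in the interaction from -0.54 to 0.79, -0.80 to 1.02, -0.25 to 0.78 and -0.85 to 0.78. Other filters moved the genes called to between 22 and 73 in total and between 7 and 14 in polysomal RNA, and a joint fit of all libraries called 60 in total RNA, 22 in polysomal RNA, 41 between fractions in control cells and 21 in RBMX cells. Quantile normalization called 70 and no filter 53 between fractions in RBMX cells, and quantile normalization called 8 in control cells. The interaction gave 3 to 7 calls without 1 library and 14 without replicate 3. The cause of these changes was not tested.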

Other observations

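Genes next to the OAS loci were followed as a list. Of 11 listed neighbours on chromosome 12, 8 passed the filter. In total and polysomal RNA 0 were called (limma), beside 0.164% and 0.0477% of all genes. An unadjusted p under 0.05 (limma) was found for 1 and 0 of them, beside 2756 and 1715 of all 14676 genes. Of these 8, 0 were separated upward in either fraction, and 1 and 0 were separated downward. Upward separation held for 11.9% and 10.0% of all genes, and the downward share was not counted. The gene lower in total RNA was PTPN11, with a log2 difference of -0.25 ± 0.087 (SE), and its groups overlapped in polysomal RNA. RPH3A, the coding gene before OAS1 at a distance of 7895 bases, did not pass the filter and was named after its values were seen. It lay between 0 and 0.020 FPKM in the 6 control libraries and between 0.174 and 0.283 FPKM in the 6 RBMX libraries, so the groups did not overlap. These levels are low, and the share of genes below the filter in that order was not counted. In RBMX cells it was at 0.239, 0.283 and 0.246 FPKM in total RNA and at 0.218, 0.238 and 0.174 FPKM in polysomal RNA, so replicate 3 was lowest in polysomal RNA only. DTX1, which follows OAS2 at 44985 bases and was also chosen after its values were seen, was at 0.367, 0.228 and 0.199 FPKM in control and at 0.966, 0.855 and 0.265 FPKM in RBMX total RNA, so the groups overlapped through replicate 3.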
